A study of Mus musculus with 18 samples.

Results

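The 3 genes of the NR4A family, Nr4a1, Nr4a2 and Nr4a3, were followed in mouse monocytes before and during culture with GM-CSF. They were taken by their symbols from the table of all 18 libraries and are 3 of its 20298 genes. Wild-type (WT) mice were compared with double knock-in (DKI) mice, in which changes in the N-domains of both Stat5a and Stat5b let STAT5 form dimers but not tetramers. The mutations are carried in the germline, so every cell of a DKI mouse has them. The labels give the strain of all mice as C57BL/6, and the study's methods give that of the DKI mice as C57BL/6J. The cells were Ly6C+ CCR2+ monocytes, taken untreated (day 0) or cultured in 20 ng/ml GM-CSF until day 3 or day 6, when they are called monocyte-derived cells (MDCs). The monocytes were enriched by negative selection, and the study gives only a lower limit for their purity. Each of the 6 groups of genotype and day had 3 libraries, described as independent experiments. In the labels the tissue is given as liver and in the study's methods as bone marrow, and 5 hepatocyte marker genes summed to at most 0.047 RPKM in any library, with all 5 at 0 in every library of days 3 and 6. The age and sex of the mice were not given in the sources used here.

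NR4A proteins are orphan nuclear receptors. They bind DNA and act on transcription without a known hormone, so that the amount of protein made sets much of their activity. Their genes belong to the immediate early genes, which are transcribed within minutes of a signal and have short-lived mRNAs. NR4A1 (also called Nur77) is needed for the survival of patrolling, non-classical Ly6C-low monocytes and is induced in lymphocytes by antigen receptor signals. NR4A2 (Nurr1) is best known for the development of dopamine neurons, and NR4A3 (Nor1) is induced in activated dendritic cells, where it has a part in their CCR7-dependent migration.

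The genes lie on separate chromosomes, and in the GENCODE annotation of GRCm38 (mm10) none overlaps another gene. The positions that follow are those of RefSeq. Nr4a1 (Entrez 15370) spans chr15:101253902-101274795 on the plus strand, Nr4a2 (18227) spans chr2:57106830-57124003 on the minus strand, and Nr4a3 (18124) spans chr4:48045078-48086447 on the plus strand. Because the 3 genes moved in different ways in these cells, the 250 bases before 1 annotated RefSeq start of each are shown, taken from GRCm38.p6 and written 5′ to 3′ on the gene's strand. The windows are chr15:101266596-101266845 (plus strand), chr2:57124004-57124253 (minus strand) and chr4:48045055-48045304 (plus strand), and each gene has a single window in the table used. The window of Nr4a2 ends where the span of the gene begins, whereas that of Nr4a1 lies wholly inside the span and that of Nr4a3 mostly inside it, so that both genes also have an annotated start further upstream. Capitals mark TGACG, the core bound by CREB proteins, or its reverse complement CGTCA.
Nr4a1: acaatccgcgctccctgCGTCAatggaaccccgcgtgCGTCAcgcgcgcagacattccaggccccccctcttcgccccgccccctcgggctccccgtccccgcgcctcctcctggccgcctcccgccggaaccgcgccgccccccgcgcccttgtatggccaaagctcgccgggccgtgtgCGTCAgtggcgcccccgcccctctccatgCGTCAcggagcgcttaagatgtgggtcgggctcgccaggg
Nr4a2: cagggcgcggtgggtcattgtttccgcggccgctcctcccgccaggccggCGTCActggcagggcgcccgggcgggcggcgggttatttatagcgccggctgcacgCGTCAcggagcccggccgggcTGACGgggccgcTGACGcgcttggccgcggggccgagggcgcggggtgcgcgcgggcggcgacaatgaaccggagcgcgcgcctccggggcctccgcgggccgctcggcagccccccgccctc
Nr4a3: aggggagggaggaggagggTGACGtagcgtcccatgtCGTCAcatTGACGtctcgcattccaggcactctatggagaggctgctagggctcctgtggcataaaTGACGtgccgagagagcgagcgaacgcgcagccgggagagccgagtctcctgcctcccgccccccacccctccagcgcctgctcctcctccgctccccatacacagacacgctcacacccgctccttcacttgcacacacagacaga
Each window held 4 matches of TGACG on either strand, and 45 of 32851 RefSeq promoter windows of the same length (0.137%) held 4 or more, while 17.8% held at least 1. The 32851 windows include these 3 and were not matched to them for content of G and C. That content was 74.4% for Nr4a1, 80.0% for Nr4a2 and 63.6% for Nr4a3. Counted from the end of each window, the 4 matches began 233, 213, 69 and 40 bases before the start used for Nr4a1, and 231, 213, 205 and 147 bases before that used for Nr4a3. In Nr4a2 they stood at 200, 144, 123 and 111 bases. None of the 3 windows held TTCNNNGAA, the letters of a STAT5 site (in 7.02% of all windows), AAAGGTCA, the letters to which NR4A proteins bind (1.34%), the full palindrome TGACGTCA (1.55%), or a CArG box (1.47%). These matches describe letters in short windows and say nothing of binding.

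Depth was estimated at 29.5 to 43.2 M mapped reads per library. At the lowest depth, 3 reads on a 1 kb gene equal 0.102 RPKM (reads per kilobase of gene, scaled to the mapped reads of the library), and the lowest value of any NR4A gene was 0.288 RPKM. Values were analysed as log2(RPKM + 1), a scale that understates the change of low genes. A gene was called different at a fold change above 1.5 with a Benjamini-Hochberg adjusted p under 0.05 from limma, and was fitted only where its mean exceeded 2 RPKM in at least 1 group of the comparison. Replicate libraries of a group correlated at 0.963 to 0.989 over all genes. The name of library 1 of each day 3 and day 6 group carries an earlier year than those of all other libraries.

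Before GM-CSF, Nr4a1 was the most abundant NR4A transcript in every library and reached rank 45 of all genes in WT library 3. In WT monocytes Nr4a1 was at 134, 428 and 737 RPKM, and in DKI monocytes it was at 167, 385 and 657 RPKM, in libraries 1 to 3. Nr4a2 was at 16.8, 79.1 and 36.2 RPKM in WT and 23.3, 108 and 27.9 RPKM in DKI. For Nr4a1 and Nr4a2 the libraries of one genotype lay several-fold apart, the genotypes overlapped, and the same-numbered WT and DKI libraries stood in the same order. Nr4a3 was far more even, at 15.6, 17.8 and 18.2 RPKM in WT and 18.5, 18 and 14.9 RPKM in DKI, again with overlap.

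**Figure D1:**
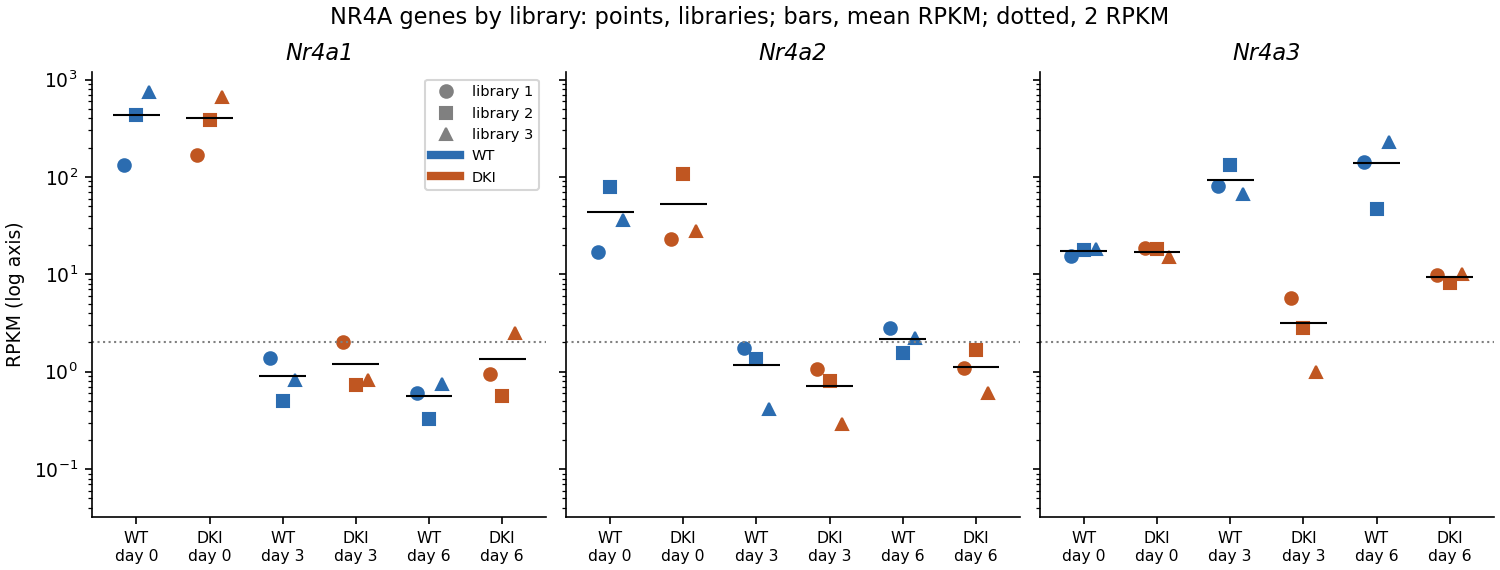
RPKM (log axis) of each NR4A gene in the 3 libraries of each genotype and day; points are libraries, bars are group means and the dotted line is 2 RPKM. Nr4a1 and Nr4a2 fall from day 0 to day 3 in both genotypes, while Nr4a3 stands at 66.7 to 132 RPKM in WT and 0.988 to 5.66 RPKM in DKI at day 3.

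None of the NR4A genes was called different between DKI and WT monocytes at day 0, where 0 of 9179 genes fitted were called (0%) and 44 had an unadjusted p under 0.05. The genotypes did not overlap in 1.03% of these genes, and overlapped in all 3 NR4A genes. The log2 fold change, DKI against WT, was 0.00 for Nr4a1 (SE 0.75, 95% interval −1.82 to 1.82), 0.18 for Nr4a2 (SE 0.75, interval −1.66 to 2.01) and −0.01 for Nr4a3 (SE 0.13, interval −0.33 to 0.32), each with adjusted p = 1. The wide intervals of Nr4a1 and Nr4a2 come from the spread among libraries of 1 genotype. Same-numbered libraries differed far less, by 0.31, −0.15 and −0.16 for Nr4a1 and by 0.45, 0.45 and −0.36 for Nr4a2. With the library number as a block, the interval narrowed to −0.28 to 0.28 for Nr4a1 (SE 0.11), −0.28 to 0.63 for Nr4a2 (SE 0.18) and −0.27 to 0.26 for Nr4a3 (SE 0.10), again with adjusted p = 1. In bulk RNA, fewer cells of a type and less RNA per cell cannot be told apart, here and in all comparisons that follow.

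The spread of Nr4a1 and Nr4a2 at day 0 went with the number of the library. Nr4a1 was highest in library 3 of both genotypes, and so was the sum of 20 other immediate early genes, at 2370, 2800 and 4330 RPKM in WT and 2390, 2680 and 4100 RPKM in DKI. Nr4a2 was highest in library 2 of both genotypes, and so was the sum of 5 stromal cell markers, at 33.7, 67.1 and 30.3 RPKM in WT and 45.9, 154 and 52.5 RPKM in DKI. This was not particular to stromal markers. Library 2 was also highest in both genotypes for the sums of the markers of B and plasma cells (109 RPKM in WT and 262 RPKM in DKI), of eosinophils, basophils and mast cells (498 and 359), of erythroid cells (24.4 and 33.6) and of dendritic cells (160 and 203). The 15 non-classical monocyte genes summed to 507, 1070 and 759 RPKM in WT and 597, 1070 and 731 RPKM in DKI, the order of libraries seen for Nr4a2. Such a sum is carried by the most abundant genes of its list, so its order need not be that of the rarer ones. The part of any of these cells in the level of Nr4a2 was not tested.

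**Figure D2:**
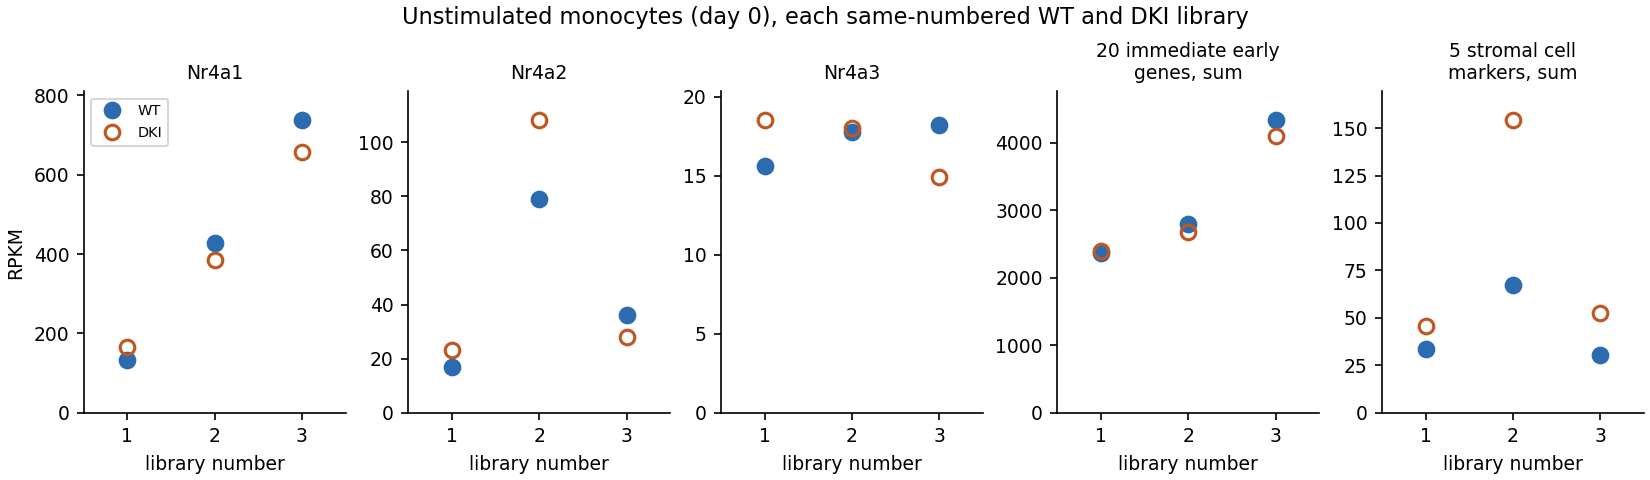
RPKM at day 0 by library number in WT (filled) and DKI (open) for the 3 NR4A genes, the sum of 20 immediate early genes and the sum of 5 stromal cell markers. Nr4a1 and the immediate early sum peak in library 3, Nr4a2 and the stromal sum in library 2, and Nr4a3 stays between 14.9 and 18.5 RPKM.

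From day 0 to day 3 of GM-CSF, Nr4a1 and Nr4a2 fell in both genotypes. The day 0 cells were not cultured, and there was no culture without GM-CSF. In every comparison with day 0, GM-CSF therefore cannot be told apart from culture itself or from handling of the cells. At day 3 the WT libraries held Nr4a1 at 1.40, 0.504 and 0.816 RPKM, and the DKI libraries at 2.01, 0.728 and 0.830 RPKM. Every day 3 library lay below every day 0 library of its genotype by a wide gap. In WT the log2 change was −7.55 (SE 0.58, adjusted p = 0.00018), or 478-fold on the ratio of means, and was the 2nd largest decrease among 9938 genes fitted. In DKI it was −7.36 (SE 0.50, adjusted p = 0.00058), or 339-fold, the largest decrease of the 9922 genes fitted. Of all genes fitted, 43.1% were called in WT (22.8% lower and 20.3% higher at day 3) and 34.2% in DKI (21.1% lower and 13.1% higher), and 32.2% in WT and 34.6% in DKI had every day 3 library below every day 0 library. Centring each library on its median turned the split of calls from 2270 lower and 2013 higher to 2000 and 2267 in WT, and from 2097 and 1297 to 1622 and 1743 in DKI, and left all 3 NR4A genes called in the same direction in both.

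Nr4a2 was at 1.74, 1.34 and 0.418 RPKM in WT and at 1.06, 0.812 and 0.288 RPKM in DKI at day 3, again with no overlap with day 0. Its log2 change was −4.17 in WT (SE 0.54, adjusted p = 0.00126) and −4.65 in DKI (SE 0.57, adjusted p = 0.00288). The declines of Nr4a1 and Nr4a2 were not called different between the genotypes. The difference, DKI change minus WT change, was 0.18 for Nr4a1 (SE 0.85, interval −1.71 to 2.07, adjusted p = 0.953) and −0.48 for Nr4a2 (SE 0.87, interval −2.40 to 1.44, adjusted p = 0.851). With the number as a block within each day they were 0.18 (SE 0.18, interval −0.24 to 0.61, adjusted p = 0.524) and −0.48 (SE 0.25, interval −1.09 to 0.12, adjusted p = 0.248).

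Nr4a3 moved in opposite directions in the 2 genotypes. In WT it was at 80.8, 132 and 66.7 RPKM at day 3, each above every WT library of day 0. In DKI it was at 5.66, 2.79 and 0.988 RPKM, each below every DKI library of day 0. From day 0 to day 3 it rose in WT by 2.31 on the log2 scale (SE 0.25, adjusted p = 0.000699), or 5.41-fold, and 28.8% of the genes fitted had day 3 above day 0 without overlap. Over the same days it fell in DKI, with a log2 change of −2.29 (SE 0.42, adjusted p = 0.00888), or 5.45-fold. The difference between these changes was −4.60 (SE 0.53, interval −5.77 to −3.44, adjusted p = 0.00149). For this difference 174 of 10212 genes fitted were lower and 123 higher, 2.91% in all, 1.7% lower and 1.2% higher. With the library number as a block within each day, 1040 genes were called, and Nr4a3 was called as well.

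At day 3, Nr4a3 was lower in DKI than in WT MDCs by 29.6-fold, from a mean of 93.2 ± 34.4 RPKM in WT to 3.14 ± 2.35 RPKM in DKI (SD, n = 3 each), and the groups did not overlap. The log2 fold change was −4.61 (SE 0.47, interval −5.75 to −3.48, adjusted p = 0.0069), the 8th largest decrease among the 9740 genes fitted. Of these genes, 410 were called lower and 313 higher, 7.42% in all, 4.21% lower and 3.21% higher, and in 22.9% the DKI libraries all lay below the WT libraries. Between same-numbered libraries the WT level was 14.3, 47.3 and 67.5 times the DKI level, the smallest ratio being that of the libraries named for the earlier year. In the libraries of the later year alone the log2 change was −5.11 (adjusted p = 0.0256), and it stayed between −5.04 and −4.17 as each library was left out (adjusted p 0.00731 to 0.0343). Nr4a1 and Nr4a2 had means under 2 RPKM in both genotypes at day 3 and were not fitted, with log2 differences of 0.18 and −0.31. The genotypes overlapped, although between same-numbered libraries Nr4a1 ran one way (0.33, 0.20 and 0.01) and Nr4a2 the other (−0.41, −0.37 and −0.14), at levels of at most 2.01 RPKM. In the unpaired fit with no filter on low values their adjusted p were 0.755 and 0.618.

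At day 6, Nr4a3 was at 142, 46.8 and 230 RPKM in WT and at 9.84, 8.16 and 10.1 RPKM in DKI. The WT libraries were widely spread, the DKI libraries were close together, and the lowest WT library lay well above the highest DKI library. The log2 fold change was −3.49 (SE 0.55, interval −4.80 to −2.18, adjusted p = 0.0239), or 14.9-fold. Among 9842 genes fitted, 474 were called lower and 268 higher, 7.54% in all, 4.82% lower and 2.72% higher, and in 26.6% the DKI libraries all lay below the WT libraries. Another scaling, centring each library on its median, turned this split to 285 lower and 323 higher, with Nr4a3 still called. The size of the day 6 difference held better than its call. The adjusted p rose to 0.0554 without DKI library 1, 0.0784 without DKI library 3, 0.0859 without WT library 1, 0.0616 without WT library 3, 0.0547 with no filter on low values, and 0.169 in the libraries of the later year alone, while the log2 change remained between −4.14 and −3.

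Nr4a2 at day 6 was at 2.83, 1.54 and 2.20 RPKM in WT and at 1.1, 1.68 and 0.604 RPKM in DKI. The groups overlapped through WT library 2 and DKI library 2, and the log2 difference of −0.60 was not called (SE 0.28, interval −1.27 to 0.08, adjusted p = 0.219). Nr4a1 was at 0.600, 0.329 and 0.747 RPKM in WT and at 0.940, 0.559 and 2.51 RPKM in DKI, where library 3 stood apart. The genotypes overlapped, and with both means under 2 RPKM it was not fitted (log2 difference 0.50, adjusted p = 0.417 in the unpaired limma fit with no filter). Between same-numbered libraries Nr4a1 was higher in DKI each time, by 0.28, 0.23 and 1.01, at levels of at most 2.51 RPKM.

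**Figure D3:**
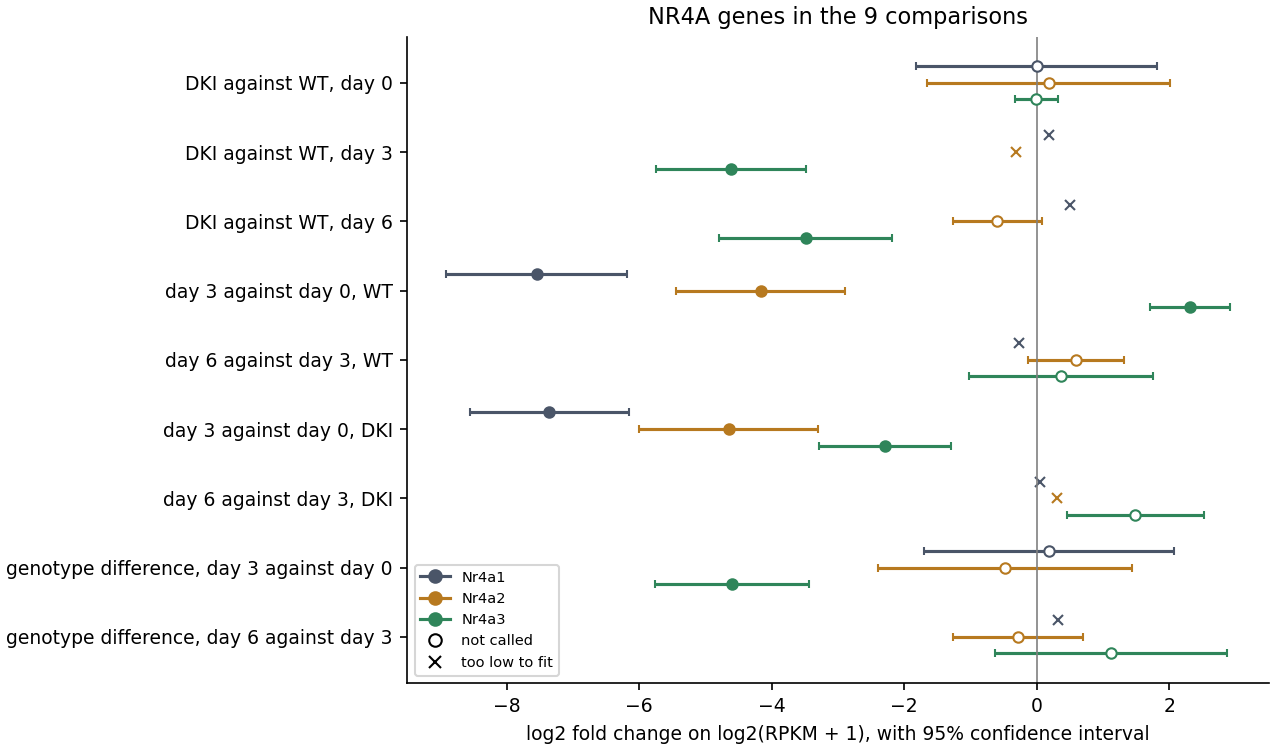
Log2 fold change of each NR4A gene in the 9 comparisons, on log2(RPKM + 1) with 95% confidence intervals; filled circles were called, open circles were not, and crosses mark genes too low to fit. Nr4a3 alone of the 3 has called genotype differences, at −4.61 on day 3 and −3.49 on day 6.

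Between day 3 and day 6 no NR4A gene was called changed, and neither were any of the 9613 genes fitted in WT (0%, 722 with an unadjusted p under 0.05) or of the 9540 fitted in DKI (0%, 93 with an unadjusted p under 0.05). In DKI the day 6 libraries of Nr4a3 all lay above its day 3 libraries, with a log2 difference of 1.48 (SE 0.43, interval 0.45 to 2.52, adjusted p = 0.999, unadjusted p = 0.0124), and 1.14% of genes had day 6 above day 3 in this way. With the library number as a block its interval was 0.53 to 2.44 (SE 0.36, adjusted p = 0.852). In WT the difference was 0.36 (SE 0.58, interval −1.03 to 1.76, adjusted p = 0.885; interval −1.49 to 2.22 with the block) and the days overlapped. WT Nr4a2 differed by 0.59 (SE 0.30, interval −0.13 to 1.32, adjusted p = 0.674). The genotype difference of Nr4a3 was not called to change between the days, at 1.12 (SE 0.79, interval −0.63 to 2.87, adjusted p = 1, with 0% of 9985 genes called).

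Ordered by mean level, Nr4a3 was highest in WT MDCs of day 6 (139 ± 91.6 RPKM) and day 3 (93.2 ± 34.4), which overlapped. The WT and DKI monocytes of day 0 followed at 17.2 ± 1.42 and 17.2 ± 1.93 RPKM, also overlapping, and then DKI MDCs of day 6 (9.36 ± 1.04) and of day 3 (3.14 ± 2.35), with no overlap between these 2 groups or with those above them (SD, n = 3 each). Nr4a1 averaged 433 ± 301 RPKM in monocytes from WT mice and 403 ± 246 RPKM in those from DKI mice, and at 1.34 ± 1.03, 1.19 ± 0.714, 0.906 ± 0.453 and 0.559 ± 0.212 RPKM in DKI day 6, DKI day 3, WT day 3 and WT day 6. Nr4a2 was at 53.1 ± 47.8 and 44.0 ± 31.9 RPKM in DKI and WT monocytes, and then at 2.19 ± 0.645, 1.17 ± 0.680, 1.13 ± 0.537 and 0.721 ± 0.396 RPKM in WT day 6, WT day 3, DKI day 6 and DKI day 3. In these 2 orders the only gap between neighbours without overlap was that between day 0 and the cultured cells.

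The identity of the prevailing NR4A transcript changed with culture. RPKM is per length, so the 3 genes can be added. Nr4a1 made up 75.3 to 93.9% of the summed NR4A RPKM in the 6 libraries of day 0, Nr4a2 3.99 to 21.2% and Nr4a3 2.14 to 9.38%. In WT MDCs Nr4a3 made up 96.3 to 98.6% at day 3 and 96.1 to 98.7% at day 6. In DKI MDCs it made up 46.9 to 64.8% at day 3 and 76.4 to 82.8% at day 6, below every WT library of the same day. The sum itself was 67.9 to 134 RPKM in WT against 2.11 to 8.73 RPKM in DKI at day 3, and 48.6 to 233 RPKM against 10.4 to 13.2 RPKM at day 6. Over the 18 libraries, on the log2 scale, Nr4a1 and Nr4a2 correlated at 0.95, Nr4a1 and Nr4a3 at −0.15, and Nr4a2 and Nr4a3 at 0.00. These correlations are descriptions in which the contrast of day 0 with culture weighs heavily.

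**Figure D4:**
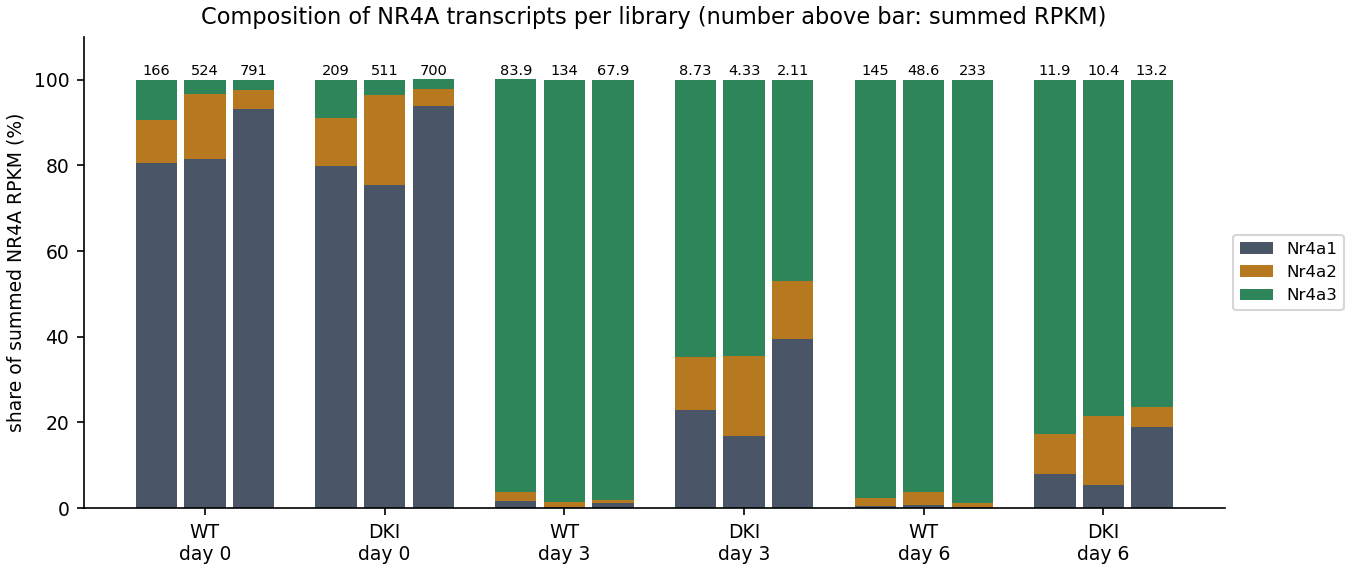
Share of the summed NR4A RPKM (%) taken by each gene in each of the 18 libraries, with the summed RPKM above each bar. Nr4a1 makes up most of the sum at day 0 and Nr4a3 at least 96.1% of it in WT MDCs, while in DKI MDCs the share of Nr4a3 is 46.9 to 82.8% of a much lower sum.

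The genes with the pattern most like each NR4A gene over the 18 libraries, by Pearson correlation of log2(RPKM + 1) among 10416 genes, are given as a description. Those nearest to Nr4a1 were Nrg2, Adgrl4, Nrgn, Dnah8 and Grb14 (0.989 to 0.992). All 5 were at 3.17 to 17.3 RPKM in the monocyte groups and at most 0.148 RPKM in any MDC group. Those nearest to Nr4a2 were Cxcl12, Cx3cr1, Ibsp, Serping1 and Igfbp5 (0.974 to 0.980). Cxcl12, a chemokine of marrow stromal cells, is also on the list of 5 stromal markers above, and Cx3cr1, the fractalkine receptor of non-classical monocytes, averaged 43.7 RPKM (WT) and 40.6 RPKM (DKI) before culture and under 1 RPKM in every MDC group. Those nearest to Nr4a3 were Tmem131, Tspan33, Pla1a, Map3k14 and Cd80 (0.913 to 0.925), all above their day 0 mean in WT MDCs and below it in DKI MDCs. Map3k14, which encodes the kinase NIK of the non-canonical NF-κB pathway, averaged 33.5 RPKM in WT and 5.48 RPKM in DKI at day 3, against 12 and 14.3 RPKM at day 0. Cd80, a ligand of the T-cell receptors CD28 and CTLA-4, averaged 71.6 and 12.2 RPKM at day 3, against 24.5 and 26.2 RPKM at day 0.

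The DNA-binding partners and corepressors of NR4A proteins, 13 genes of which 11 were fitted, held 1 call between the genotypes. At day 3, 1 was called higher in DKI and 0 lower, where 7.42% of all genes were called, with a median log2 difference of −0.21 against −0.11 over all genes. The gene called was Rxra, the retinoid X receptor that pairs with NR4A1 and NR4A2, at 39.3 ± 2.03 RPKM in DKI and 23.7 ± 3.5 RPKM in WT (log2 0.71, adjusted p = 0.0452). At day 6 none of the 11 was called (Rxra 0.95, adjusted p = 0.0717), against 7.54% of all genes, with a median of −0.33 against −0.17.

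Among regulators upstream of NR4A transcription, 18 of 19 were in the table and all 18 were fitted at days 3 and 6. At day 3, 2 were lower and 1 higher in DKI (4.21% and 3.21% over all genes), with a median of −0.19 against −0.11. At day 6, 2 were lower and 2 higher (4.82% and 2.72% over all genes), with a median of −0.19 against −0.17. Crem, a cAMP-responsive factor of the CREB family, was lower at both days (−1.13, adjusted p = 0.0295, and −1.34, adjusted p = 0.0219), as was Adora2a, an adenosine receptor that raises cAMP (−1.79, adjusted p = 0.0494, and −2.84, adjusted p = 0.018). Ptger2, a prostaglandin E2 receptor that also raises cAMP, was higher at day 6 (2.14, adjusted p = 0.0447), as was Mef2c, a calcium-responsive factor (1.78, adjusted p = 0.0303). At day 3 their values were 1.68 and 1.09, neither called. From day 0 to day 3, 10 of the 18 fell and 4 rose in WT, and 11 fell and 2 rose in DKI, where 22.8% of all genes fell and 20.3% rose in WT, and 21.1% and 13.1% in DKI. The median log2 changes were −0.72 and −0.84, against −0.05 and −0.16 over all genes.

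Most of the other immediate early genes that were called over time fell, as Nr4a1 and Nr4a2 did. From day 0 to day 3, 12 of 20 fitted fell and 2 rose in WT (22.8% and 20.3% over all genes; median log2 change −1.55 against −0.05), and 10 of 19 fell and 0 rose in DKI (21.1% and 13.1%; median −1.66 against −0.16). Between genotypes, 3 of 18 were lower and 0 higher in DKI at day 3 (4.21% and 3.21% over all genes; median −0.45 against −0.11). At day 6, 2 were lower and 2 higher (4.82% and 2.72%; median −0.27 against −0.17). Arc, a cytoskeletal immediate early gene, was lower in DKI at day 3 (−2.53, adjusted p = 0.0388) and day 6 (−2.64, adjusted p = 0.00919), and so was Maff, a small MAF factor (−2, adjusted p = 0.00692, and −1.73, adjusted p = 0.0273). The AP-1 gene Jund was lower at day 3 (−1.31, adjusted p = 0.0265) and not called at day 6 (−0.72, adjusted p = 0.0941). Fos, another AP-1 gene, stood the other way, higher in DKI at day 6 (3.03, adjusted p = 0.0288), with 2.85 at day 3 (adjusted p = 0.0804). So did Jun, named after its values were seen, at day 6 (1.31, adjusted p = 0.0143), with 1.04 at day 3 (adjusted p = 0.0827). Arc also rose from day 0 to day 3 in WT, as Nr4a3 did (2.73, adjusted p = 0.00412).

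Genes of CCR7-positive dendritic cells, a setting in which NR4A3 has been described, were lower in DKI together with Nr4a3. Of 18 listed, 8 of 14 fitted were lower at day 3 and 0 higher, and 10 of 16 were lower at day 6 and 0 higher, where 4.21% and 4.82% of all genes were lower, with median log2 differences of −3.32 and −2.66 against −0.11 and −0.17 over all genes. The study chose Ccr7, Ccl17, Ccl22 and Cd83 of this list on the same libraries, so that its direction is not independent evidence. Ccr7, the receptor that guides dendritic cells to lymph nodes, averaged 136 ± 85.6 RPKM in WT and 7.30 ± 8.55 RPKM in DKI at day 3 (log2 −4.47, adjusted p = 0.0386). The CCR4 ligands Ccl17 (−7.13, adjusted p = 0.00477) and Ccl22 (−4.52, adjusted p = 0.0244) were also lower at day 3. Fscn1, which encodes the actin-bundling protein fascin of mature dendritic cells, was not called at day 3 (−4.43, adjusted p = 0.0502). All 4 were lower at day 6, with log2 differences of −6.73 for Ccl17, −4.33 for Ccl22, −3.77 for Ccr7 and −3.68 for Fscn1 (adjusted p 0.00818 to 0.0239).

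**Figure D5:**
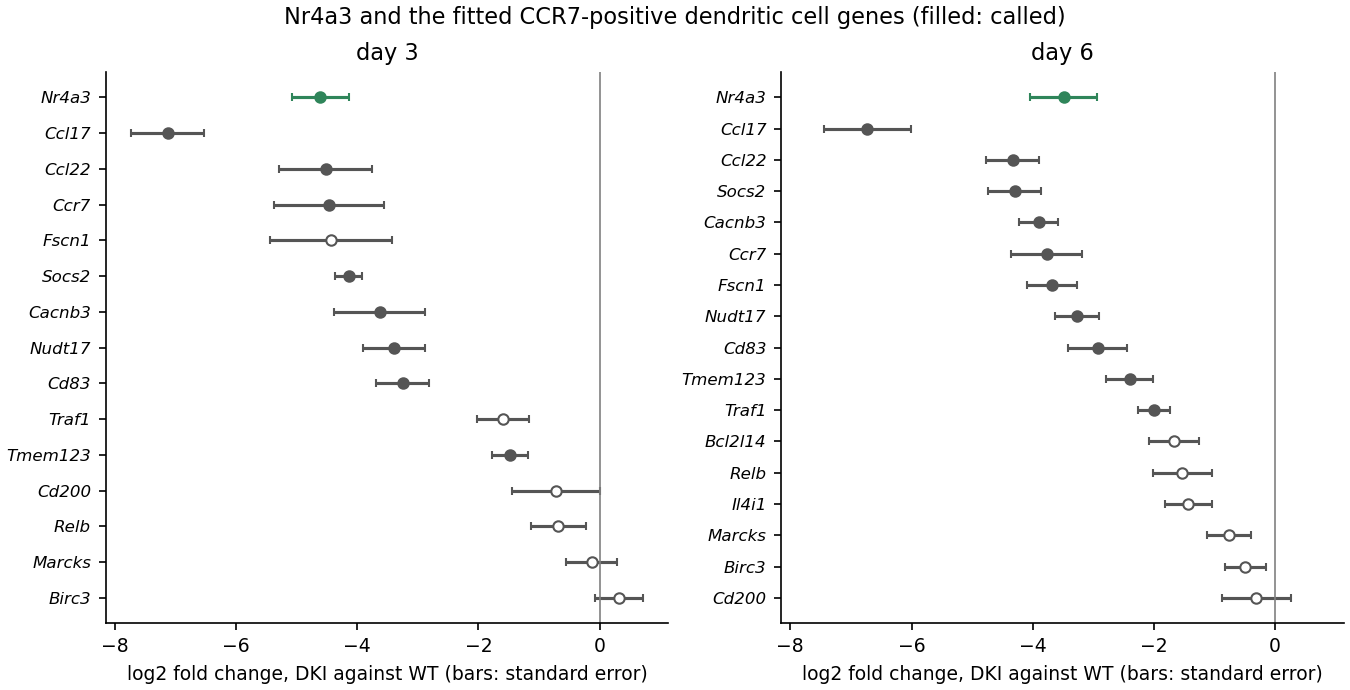
Log2 fold change, DKI against WT, of Nr4a3 and of each fitted gene of the CCR7-positive dendritic cell list at day 3 and day 6, with standard errors; filled points were called. At day 3 the change of Nr4a3, −4.61, lies beside those of Ccl22, −4.52, and Ccr7, −4.47.

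The summed levels of several cell type marker lists also stood apart between the genotypes at day 3, and some of these at day 6. The 8 dendritic cell markers summed to 20700 to 33900 RPKM in WT and 3390 to 11600 RPKM in DKI at day 3, and to 19900 to 37100 RPKM and 4800 to 15800 RPKM at day 6, with 2 of 7 fitted called lower at day 3 and 2 of 8 at day 6 (4.21% and 4.82% over all genes). The 9 macrophage markers summed to 410 to 1320 RPKM in WT and 2590 to 13600 RPKM in DKI at day 3, with 4 of 9 called higher (3.21% over all genes), and to 605 to 2930 RPKM and 2880 to 16700 RPKM at day 6, with 3 of 9 called higher (2.72%). The 9 monocyte markers summed to 1150 to 1270 RPKM in WT and 1590 to 2570 RPKM in DKI at day 3, and to 1200 to 1830 RPKM and 1670 to 8940 RPKM at day 6, with none called. At day 6 the genotypes overlapped in both the macrophage and the monocyte sums. The monocyte sum of 8940 RPKM was that of DKI library 3 alone, against 1930 and 1670 RPKM in DKI libraries 1 and 2. The 6 B and plasma cell markers were low and higher in DKI without overlap, at 0.991 to 1.45 RPKM against 2.76 to 8.41 RPKM at day 3 and 0.685 to 1.22 RPKM against 1.8 to 4.64 RPKM at day 6, with none of those fitted called. The 9 neutrophil markers summed to 2420 to 4300 RPKM in WT and 2580 to 5130 RPKM in DKI at day 0. Their sums were 187 to 4480 RPKM and 562 to 2820 RPKM at day 3, and 22 to 592 RPKM and 38.3 to 3070 RPKM at day 6. The genotypes overlapped in these sums on each day, with no neutrophil marker called. In monocytes before culture the dendritic cell markers summed to only 80.2 to 203 RPKM, while Nr4a3 was at 14.9 to 18.5 RPKM. The part of the makeup of the cultures in the Nr4a3 difference was not tested.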

How the data were processed

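RNA-seq of WT and DKI monocytes and MDCs was taken from the deposited table of RPKM values, in which genes are listed by Entrez identifier with 1 column per library. To make it, the authors mapped single-end reads to mm10 with Subread and counted reads per RefSeq gene with featureCounts, by their methods. Versions and the use of strand are not given in the sources used here. Scaling is to the mapped reads of each library only, so a few abundant genes can lower all others.

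RefSeq symbols matched 20082 identifiers and 216 had none. Depth (median 36.5 M reads) was estimated from the lowest values of 1156 short receptor genes. Of 84 other low values there, 81 (96.4%) were whole multiples of 1 read within 0.05 reads, where chance gives 10%. This was not shown for the other genes, and count models were not used.

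Genes with a mean above 2 RPKM in at least 1 group of a comparison were fitted on log2(RPKM + 1) with limma 3.58.1 in R 4.3.3 (lmFit, eBayes with trend), on the libraries of that comparison alone. Adjusted p values are Benjamini-Hochberg over all genes fitted, and a call needs a fold change above 1.5 with adjusted p under 0.05, limits the authors used with edgeR. Differences between genotype effects were tested as an interaction over 12 libraries. The fits were tried on simulated data with independent noise in each library, which lacked the pairing of libraries described below. An exact permutation test of 3 against 3 libraries cannot go below p = 0.1 and was not used. Same-numbered WT and DKI libraries of a day deviated together (correlations of deviations 0.69 to 0.87 at day 0, 0.16 to 0.37 at day 3 and 0.34 to 0.41 at day 6), so the numbers were taken to pair the genotypes within a day. Numbers also paired day 3 with day 6 within a genotype (0.12 to 0.68 in WT and 0.32 to 0.74 in DKI), but not day 0 with day 3 (−0.21 to 0.18).

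The members and the gene lists were chosen with earlier results of these data known. Beside the NR4A genes, the text names up to 4 genes per list called at day 3 or day 6 between genotypes, by the largest log2 difference on either day, and the 5 genes most like each member. Promoter sequences and gene positions are from RefSeq on GRCm38.p6, and overlap with other genes was looked for in GENCODE. Alternatives were a pseudocount of 0.1, no filter, median centring of each library, the library number as a block, a fit of all 18 libraries, only the libraries named for the later year, and leaving out each library.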

Additional observations from a re-analysis of the deposited data

Results flagged for a closer look

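The change of Nr4a3 from day 0 to day 3 differed between the genotypes, by the interaction test itself. The DKI change minus the WT change was −4.60 on the log2 scale (limma adjusted p = 0.00149), and it stayed between −5.03 and −4.16 as each of the 12 libraries was left out. All 3 WT libraries of day 3 lay above, and all 3 DKI libraries below, every day 0 library of their genotype.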

How the results depend on the processing

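The calls of Nr4a1, Nr4a2 and Nr4a3 from day 0 to day 3 in both genotypes, of Nr4a3 between genotypes at day 3 and of its genotype difference between days 0 and 3 kept their direction and stayed called under every alternative run. The day 6 call of Nr4a3 was lost with no filter (−3.49, adjusted p = 0.0547) and in the libraries of the later year alone (−3.38, adjusted p = 0.169), and with single libraries left out it ranged from −4.14 to −3. With the library number as a block it was −3.49 (adjusted p = 0.0293), still called, and the block changed no call of an NR4A gene. The block moved the count for the genotype difference of days 0 and 3 to 1040. The counts between genotypes were 358 at day 3 and 187 at day 6 with no filter, 1350 and 1545 in the fit of all 18 libraries, and 369 and 38 in the libraries of the later year. The fit of all 18 libraries also gave 6 calls at day 0 and 13 for WT day 6 against day 3. Leaving out single libraries gave 197 to 715 calls at day 3 (197 to 216 without each WT library, 415 and 432 without DKI library 2 or 3) and 90 to 984 at day 6 (90 and 251 without DKI library 3 or 1, 106 and 107 without WT library 1 or 3). It gave 0 to 1 for WT day 6 against day 3, 1976 (without day 0 library 2) to 3412 for DKI day 3 against day 0, and 125 to 336 for the genotype difference (125 to 189 without each DKI library or WT library 2 or 3 of day 0). Some values that were not called changed sign. At day 0, Nr4a1 was at 0 with a pseudocount of 0.1, and leaving out libraries gave −0.69 to 0.54 for Nr4a1, −0.50 to 0.72 for Nr4a2 and −0.07 to 0.08 for Nr4a3. The difference of the day 0 to day 3 change ranged from −0.36 to 0.87 for Nr4a1 and from −1.03 to 0.20 for Nr4a2, and WT Nr4a3 of day 6 against day 3 from −0.13 (without day 6 library 3) to 1.01. The causes were not tested. Members under 2 RPKM gave no value where a filter applied. With 3 libraries a group, small differences may be missed.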

Other observations

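Among 45 other nuclear receptors, 43 were in the table and 19 were fitted at each of days 3 and 6. At day 3, 2 were lower and 5 higher in DKI (7.42% of all genes were called), with a median log2 difference of −0.02 against −0.11 over all genes, and at day 6, 2 were lower and 4 higher (7.54% of all genes), with a median of −0.01 against −0.17. Vdr, the vitamin D receptor, was lower at both days (−2.57, adjusted p = 0.0069, and −2.50, adjusted p = 0.0162). It rose from 1.95 ± 0.225 RPKM in WT monocytes to 45.3 ± 10.3 RPKM in WT MDCs of day 3, against 6.87 ± 2.13 RPKM in DKI MDCs (SD, n = 3 each). Nr1h3, which encodes the oxysterol receptor LXRα, was higher at day 3 (2.23, adjusted p = 0.0393; 1.92 at day 6, adjusted p = 0.0638). The heme receptor gene Nr1d2 was higher at both days (1.77, adjusted p = 0.0197, and 1.31, adjusted p = 0.0143), and Pparg, a fatty acid receptor of macrophages, was higher at day 6 (1.70, adjusted p = 0.0217; 1.04 at day 3, adjusted p = 0.107).

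Non-classical monocyte genes, listed because Nr4a1 is needed for those cells, did not move one way. Of 15 listed, 12 were fitted between the genotypes at each of days 3 and 6. At day 3, 3 were lower and 2 higher in DKI (7.42% of all genes were called), with a median of 0.05 against −0.11, and at day 6, 1 was lower and 1 higher (7.54%), with a median of −0.47 against −0.17. Cd300e, an activating receptor of monocytes, was lower in DKI at both days (−2.99, adjusted p = 0.00996, and −4.51, adjusted p = 0.0317), whereas Cd300ld, of the same receptor family, was higher (2.69, adjusted p = 0.00985, and 2.91, adjusted p = 0.0077). Fabp4, a fatty acid carrier, was higher at day 3 (3.99, adjusted p = 0.00826; 2.26 at day 6, adjusted p = 0.134), and the muscle enolase gene Eno3 was lower at day 3 (−1.90, adjusted p = 0.0241; −2.14 at day 6, adjusted p = 0.0593).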
